A study of Mus musculus with 12 samples.

Results

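The stretch and stress response genes of the cardiac sarcomere were examined in hearts that lack Sdhaf4, an assembly factor of mitochondrial complex II. The set held 10 genes chosen by name: Ankrd1, Ankrd2, Ankrd23, Xirp1, Xirp2, Fhl1, Fhl2, Csrp3, Flnc and Sprr1a. Of these, 9 had a row under that gene name in the deposited table of 43686 rows. Ankrd23 had none, but 2 unannotated loci are described there as Ankrd23 and were followed separately. RNA of the ventricular wall was sequenced from 6 WT mice, which carried floxed alleles (Sdhaf4 fl/fl) and no Cre, and from 6 KO littermates, in which the same floxed alleles were combined with Ckmm-Cre. In this transgene the muscle creatine kinase promoter drives the recombinase in cardiac and skeletal muscle, so other cells of the heart keep the gene. By the labels all mice were of strain C57BL/6, which the study's methods specify as C57BL/6J, and 2 months old, and the mutants are named Sdhaf4-/-. The study's text gives a younger age, while its reporting summary names male mice of 2 ages for omics work, the older of which is about that of the labels. The WT mice carried no Cre, so the deletion and the transgene cannot be told apart. The labels themselves give neither sex nor batch, nor do they name the animal behind each library, and p-values therefore measure the spread between these libraries.

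A cardiomyocyte senses load at the Z-disc, where actin filaments and titin are anchored, along titin itself, and at the costameres and intercalated discs that link myofibrils to the membrane. Proteins of these sites bind titin, actin or filamin at rest, and several also enter the nucleus and bind transcription factors. Transcripts of several of them are known to rise when the ventricular wall is stretched or overloaded, and Ankrd1 is among the standard markers of that state.

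Because most members rose, the 250 bases before the annotated start sites of the members were searched for short motifs of factors linked to load or to muscle transcription. The sequences are those of RefSeq on GRCm38.p6, which had 14 such windows for 9 members and no entry for Xirp1. The motifs were the M-CAT element of TEAD factors (searched as CATTCC), the AP-1 site (searched as TGANTCA), the GATA site (searched as AGATAA), the NFAT core (searched as GGAAAA), the TATA box (searched as TATAAA), the CArG box of SRF and the MEF2 site, each on both strands. The 5 windows below are shown because they belong to the members that rose most (Ankrd1, Xirp2 and Sprr1a), to the Ankrd1 paralog that was barely detected (Ankrd2), and to the member whose window held most kinds of motif (Fhl2). They lie at chr19:36119845-36120094 (minus strand, Ankrd1), chr19:42035777-42036026 (plus, Ankrd2), chr2:67445752-67446001 (plus, Xirp2), chr3:92485882-92486131 (minus, Sprr1a) and chr1:43196762-43197011 (minus, Fhl2). Each is written 5′ to 3′ on the strand of the gene and ends at the base before the start site, with motif matches in capitals.
Ankrd1: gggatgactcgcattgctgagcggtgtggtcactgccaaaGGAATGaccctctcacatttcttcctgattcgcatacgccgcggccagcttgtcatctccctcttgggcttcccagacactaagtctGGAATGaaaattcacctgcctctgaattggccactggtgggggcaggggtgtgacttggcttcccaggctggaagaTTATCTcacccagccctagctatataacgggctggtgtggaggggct
Ankrd2: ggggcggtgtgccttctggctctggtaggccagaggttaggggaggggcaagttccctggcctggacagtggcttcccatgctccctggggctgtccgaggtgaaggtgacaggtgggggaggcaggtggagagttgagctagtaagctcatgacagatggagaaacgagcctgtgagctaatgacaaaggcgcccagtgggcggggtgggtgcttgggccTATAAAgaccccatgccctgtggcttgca
Xirp2: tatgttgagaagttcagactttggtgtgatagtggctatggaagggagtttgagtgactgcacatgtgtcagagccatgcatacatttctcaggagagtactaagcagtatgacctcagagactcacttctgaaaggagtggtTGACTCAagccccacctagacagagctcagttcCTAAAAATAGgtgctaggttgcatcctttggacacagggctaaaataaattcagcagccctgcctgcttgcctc
Sprr1a: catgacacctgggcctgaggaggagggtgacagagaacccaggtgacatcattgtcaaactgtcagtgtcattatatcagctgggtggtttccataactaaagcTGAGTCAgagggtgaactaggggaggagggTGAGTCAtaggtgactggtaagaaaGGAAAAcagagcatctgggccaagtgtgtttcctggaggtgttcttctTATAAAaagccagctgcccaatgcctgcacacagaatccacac
Fhl2: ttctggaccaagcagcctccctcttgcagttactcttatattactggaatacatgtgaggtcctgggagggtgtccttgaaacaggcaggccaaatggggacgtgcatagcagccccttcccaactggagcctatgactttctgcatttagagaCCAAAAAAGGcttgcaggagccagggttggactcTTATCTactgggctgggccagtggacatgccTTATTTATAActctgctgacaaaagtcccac

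The Ankrd1 window held 2 M-CAT matches, both on the strand opposite to the one printed (-210 to -205 and -123 to -118 from the start site), and 1 GATA match (-47 to -42). The Sprr1a window held 2 AP-1 matches (-146 to -140 and -116 to -110), 1 NFAT match (-91 to -86) and 1 TATA box (-43 to -38). Xirp2 had 1 AP-1 match (-107 to -101) and 1 MEF2 match (-74 to -65), and Ankrd2 had a TATA box alone (-29 to -24). In the Fhl2 window a CArG box lay at -96 to -87, a GATA match at -62 to -57, and a MEF2 match at -31 to -22 that overlaps a TATA box match at -28 to -23. Of the 32851 promoter windows in the table, 12.6% held the M-CAT element, 6.75% the AP-1 site, 9.99% the GATA site, 20.4% the NFAT core, 12.4% the TATA box, 2.92% the MEF2 site and 1.47% the CArG box. Among the 14 windows of the members 3 held M-CAT, 2 AP-1, 3 GATA, 3 NFAT, 4 TATA box, 2 the MEF2 site and 3 the CArG box. Some members have 2 windows, so windows do not stand for separate genes: the 3 with the CArG box are 2 of Fhl2 and 1 of Fhl1. For that Fhl1 window the bases after the start site matched no transcript of the gene in a check of the sequences. The same held for the Csrp3 windows and 1 of Flnc, while all the windows printed above did match. All of these counts are of letter matches, and no binding was measured.

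The libraries held 23747014 to 27159228 counts in WT and 26542930 to 31393393 in KO. Levels are given as CPM, which are counts scaled to the library's total, here after TMM scaling, and all folds compare KO with WT. Summed levels of marker lists are CPM by library size alone, without TMM. Sdhaf4 fell from 25.2 ± 5.80 to 2.40 ± 0.170 CPM (SD, n = 6 each), a log2 fold change of -3.39 (SE 0.16, edgeR adjusted p = 1.95e-10), and the groups did not overlap. The 10 cardiomyocyte markers summed to 39871 to 41210 CPM in WT and 33495 to 41613 CPM in KO. Of the 8 atrial markers Sln, Myl7 and Bmp10 averaged under 0.1 CPM in both groups. All 4 that were tested rose, as did 25.6% of all rows tested: Nppa (250.01 to 12594 CPM), Dkk3 (3.17 to 29.3), Nr2f2 (17.2 to 28.02) and Myl4 (2.12 to 3.49). Coordinates of the rows below are on the C57BL/6NJ strain assembly, to which the table's identifiers belong, and not on the build of the printed promoters.

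All 8 members that passed the filter on low counts rose in KO (edgeR adjusted p under 0.05), and none fell. Over all 17155 rows tested 25.6% rose and 25.5% fell at that threshold. The stricter threshold of an adjusted p under 0.005 and a log2 fold change over 1 was passed by 5 members (Sprr1a, Ankrd1, Xirp2, Fhl1 and Flnc), against 5.36% of all rows, and no member passed it downwards (4.87% of all rows). In 6 members every KO library lay above every WT library, which held for 14.9% of all rows. Sprr1a passed the filter through its KO libraries alone and so had to differ; without it 7 of 7 members rose, 4 passed the stricter threshold and 5 did not overlap. The median log2 fold change was 1.53 over the 8 members, 1.34 without Sprr1a and 0.00 over all rows tested. In RNA of whole ventricle, fewer cells of a type and less RNA per cell cannot be told apart, and this holds for every level below.

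**Figure D1:**
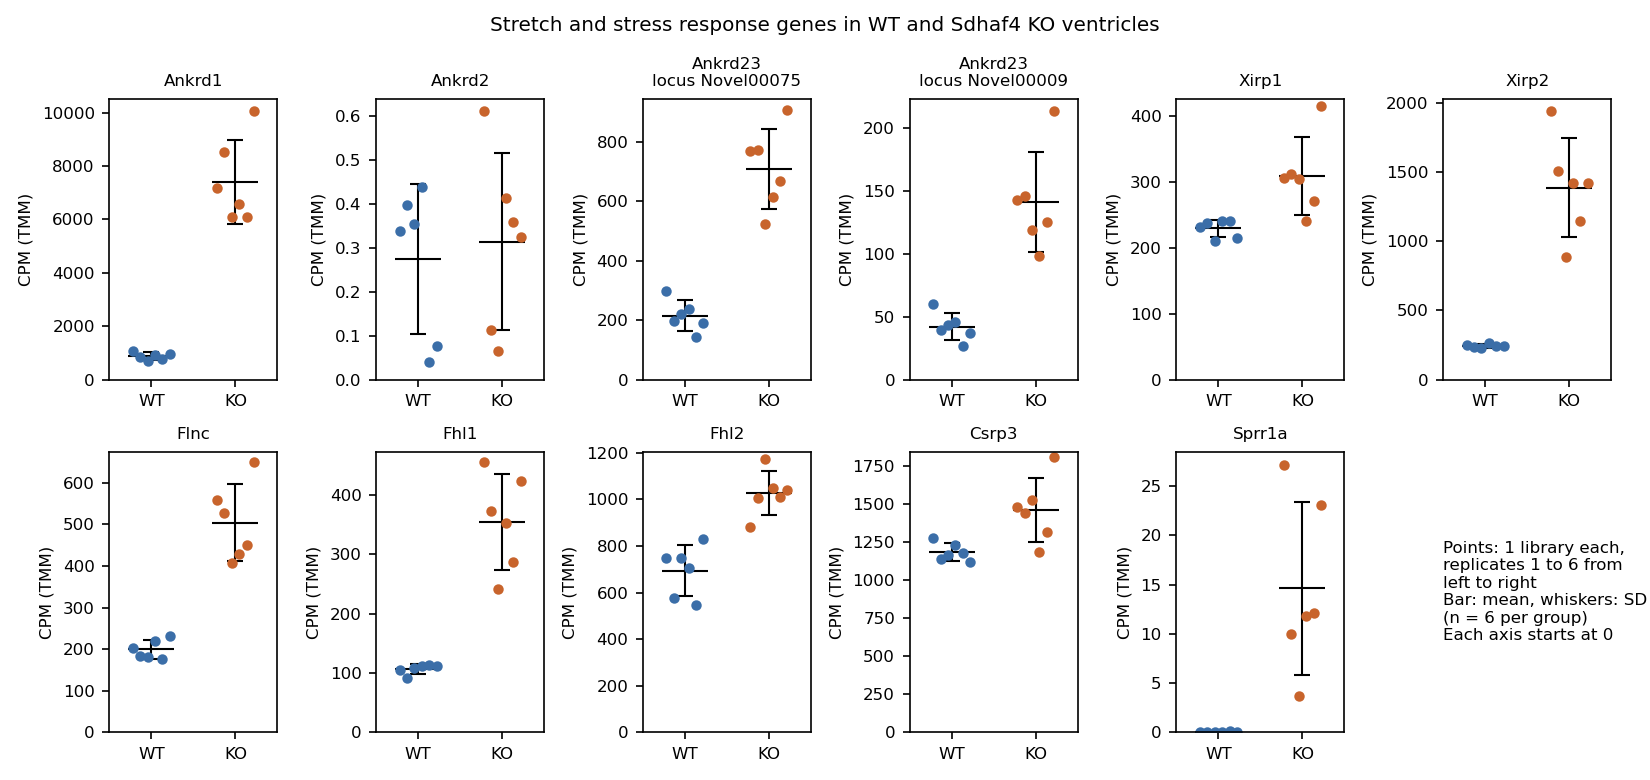
TMM-scaled CPM of each member and of both Ankrd23 loci in the 6 WT (blue) and 6 KO (orange) libraries; points are libraries, replicates 1 to 6 from left to right, bars are means and whiskers SDs, and each panel has its own axis from 0. The KO libraries lie wholly above the WT libraries in every panel but those of Ankrd2, Xirp1 and Csrp3.

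The muscle ankyrin repeat proteins bind the N2A region of titin and shuttle to the nucleus. Ankrd1 (MGP_C57BL6NJ_G0025485, chromosome 19, 35979700 to 35989179, minus strand), which encodes the cardiac member CARP, ran from 681 through a median of 899 to 1063 CPM in WT and from 6101 through 6871 to 10048 CPM in KO. The lowest KO library thus lay far above the highest WT library. The means were 880.0 ± 137 and 7420.3 ± 1574 CPM, an 8.43-fold rise (log2 fold change 3.08, SE 0.14, edgeR adjusted p = 5e-10). By the rise in mean CPM, 6540.3, it was the second of the 17155 rows tested, behind the natriuretic peptide gene Nppa, and by log2 fold change it was the 96th. Its share of all counts went from 0.0671 to 0.106% in WT to 0.587 to 0.979% in KO. Ranked by count within a library, Ankrd1 stood between place 88 and place 168 in WT and between place 7 and place 11 in KO.

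Ankrd2 (MGP_C57BL6NJ_G0025549, chromosome 19, 42413611 to 42422675, plus strand) encodes the member best known from slow skeletal muscle and was near the limit of detection. It had 1 to 11 counts in the WT libraries and 2 to 19 in the KO libraries, did not pass the filter, and its groups overlapped. The pooled rate was 42 counts in WT and 56 in KO, a ratio of 1.16 with an exact 95% interval of 0.764 to 1.78 that covers counting error only. A difference was not detectable at this depth (two-sided exact permutation test on log2 CPM, p = 0.673, n = 6 each). Of the 12 skeletal muscle markers 5 were tested, 4 of them fell and none rose (all rows tested: 25.5% fell and 25.6% rose). These markers summed to 13.2 to 36.3 CPM in WT and 5.16 to 12.3 CPM in KO. Their part in the Ankrd2 values was not tested.

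Ankrd23 encodes the third ankyrin repeat protein, DARP. The table holds it only as unannotated loci on chromosome 1: Novel00075 on the minus strand (36653797 to 36661046) and Novel00009 on the plus strand (36654013 to 36660452), which share 6440 bases. The counting's strand setting is not stated, so reads of one locus cannot be told from reads of the other and the values are uncertain. Novel00075 ran from 144 through a median of 209 to 299 CPM in WT and from 522 through 719 to 905 CPM in KO. Its log2 fold change was 1.72 (SE 0.17, edgeR adjusted p = 3.31e-06), and that of Novel00009 was 1.75 (SE 0.21, edgeR adjusted p = 3.41e-05), from 42.0 ± 10.9 to 141 ± 39.6 CPM. The groups did not overlap at either locus. Neither is counted among the 8 members above.

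The Xin proteins are actin-binding repeat proteins of the intercalated disc and of remodelling myofibrils. Xirp2 (MGP_C57BL6NJ_G0026207, chromosome 2, 69316098 to 69412149, plus strand) ran from 227 through 242 to 263 CPM in WT and from 888 through 1418 to 1943 CPM in KO. The WT libraries lay within a narrow band and the KO libraries were spread widely above it. The rise from 243 ± 12.1 to 1387 ± 356 CPM was 5.71-fold (log2 fold change 2.51, SE 0.15, edgeR adjusted p = 1.15e-08). A row on the opposite strand that the table also describes as Xirp2 held 550 counts over the 12 libraries, against 280514 for Xirp2. Xirp1 (MGP_C57BL6NJ_G0035928, chromosome 9, 126197340 to 126207183, minus strand) began at nearly the same CPM, 210 through 235 to 241 in WT, but reached only 240 through 305 to 415 CPM in KO. In Xirp1 the lowest KO library, replicate 4, lay just under the highest WT library, and the other 5 lay above it. Its means were 229 ± 13.6 and 308 ± 59.2 CPM (log2 fold change 0.43, SE 0.10, edgeR adjusted p = 0.00221).

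Filamin C, which cross-links actin at the Z-disc and the membrane and binds Xin proteins, is encoded by Flnc (MGP_C57BL6NJ_G0030960, chromosome 6, 28012211 to 28040705, plus strand). Its levels ran from 177 through 194 to 233 CPM in WT and from 408 through 489 to 651 CPM in KO, with a wide gap between the groups. The means were 199.5 ± 22.7 and 504 ± 92.7 CPM, a 2.53-fold rise (log2 fold change 1.34, SE 0.11, edgeR adjusted p = 1.7e-07).

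The Fhl genes encode proteins made of LIM domains that sit on titin and in the I-band and act as transcriptional cofactors. Fhl1 (MGP_C57BL6NJ_G0036239, chromosome X, 53419399 to 53481842, plus strand), known as a component of the stretch sensor complex on titin, ran from 91.8 through 110 to 113 CPM in WT and from 240 through 362 to 454 CPM in KO. The KO libraries lay wholly above, with replicate 3 the closest to WT. The rise was 3.31-fold (107 ± 8.12 to 355 ± 80.8 CPM; log2 fold change 1.73, SE 0.14, edgeR adjusted p = 2.12e-07). Fhl2 (MGP_C57BL6NJ_G0016370, chromosome 1, 43826136 to 43868548, minus strand), the cardiac member with the higher level, ran from 548 through 727 to 829 CPM in WT and from 881 through 1027 to 1173 CPM in KO. Its groups came close without overlapping, and the rise was 1.48-fold (693 ± 109 to 1027 ± 93.8 CPM; log2 fold change 0.57, SE 0.10, edgeR adjusted p = 0.000108).

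Csrp3 (MGP_C57BL6NJ_G0032779, chromosome 7, 51742048 to 51759715, minus strand) encodes the muscle LIM protein of the Z-disc and had the smallest log2 fold change of the 8 members tested. It ran from 1119 through 1171 to 1280 CPM in WT and from 1188 through 1461 to 1809 CPM in KO. KO replicate 4 lay inside the WT range and the other 5 KO libraries above it. The means were 1184 ± 59.9 and 1460 ± 210 CPM (log2 fold change 0.30, SE 0.08, edgeR adjusted p = 0.00506), so Csrp3 missed the stricter p as well as the stricter fold.

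Sprr1a (MGP_C57BL6NJ_G0027918, chromosome 3, 96471671 to 96473614, minus strand) encodes a small proline-rich protein of the cornified envelope of skin, which cardiomyocytes are known to make on stimulation through gp130. It had 0 to 3 counts in the WT libraries, with 2 of them at 0, and 112 to 845 counts in the KO libraries. In CPM the KO libraries ran from 3.71 through 11.96 to 27.1, and every WT library was at 0.121 or less. The pooled counts were 6 in WT and 2579 in KO, a rate ratio of 374 with an exact 95% interval of 172 to 1021 for counting error. The fitted log2 fold change, which at such WT counts depends on the prior count, was 8.38 (SE 0.75, edgeR adjusted p = 2.07e-06). Having passed the filter through its KO libraries alone, Sprr1a had to differ, so this p carries no weight of its own. Of the 9 keratinocyte markers with a row, Krt1, Krt14, Ivl and Krtdap had 0 counts in all libraries, 2 were tested and neither was called, and the list summed to 3.83 to 5.10 CPM in WT and 4.91 to 5.84 CPM in KO. Lor, the loricrin of the cornified envelope, did not pass the filter and averaged 0.137 CPM in WT and 1.19 CPM in KO.

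**Figure D2:**
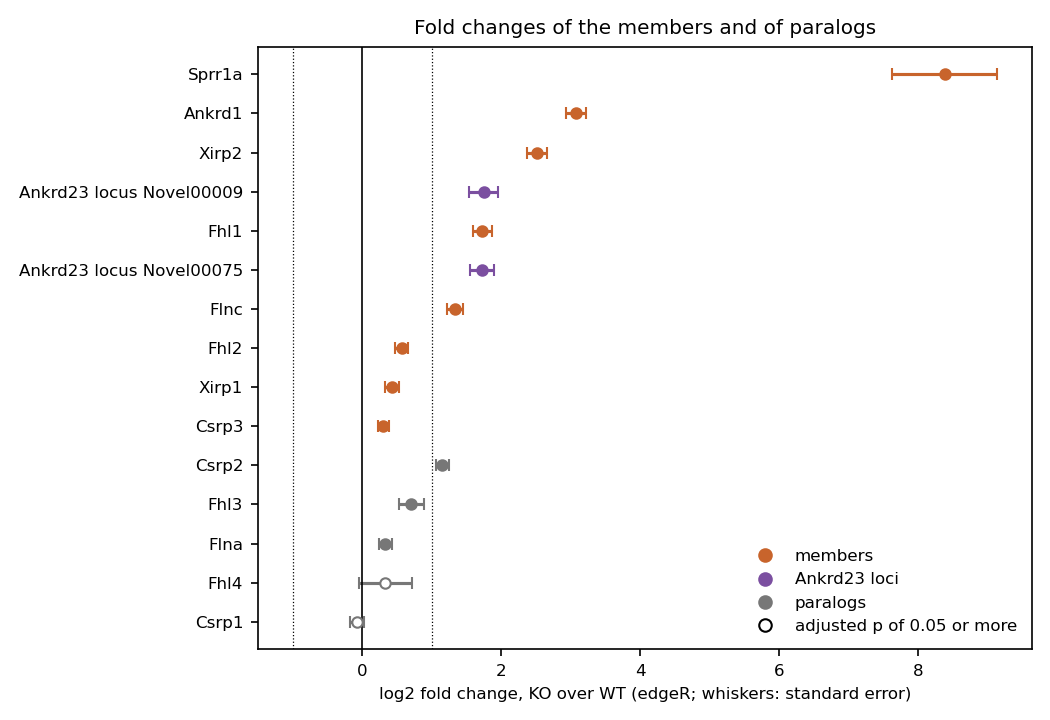
Log2 fold change (KO over WT, edgeR; whiskers are standard errors) of the 8 members tested, both Ankrd23 loci and 5 of the 6 paralogs tested; filled points have an adjusted p under 0.05 and dotted lines mark a log2 fold change of 1 in either direction. Ankrd1 and Xirp2 follow Sprr1a at 3.08 and 2.51, and Csrp3 lies lowest of the members at 0.30.

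The families of the members were read from 18 paralogs with a row, of which 6 passed the filter. Of these 3 rose and none fell, where 25.6% of all rows tested rose and 25.5% fell. Their median log2 fold change was 0.33. Csrp2, a LIM protein of the Csrp3 family, rose from 18.1 ± 1.95 to 40.3 ± 5.05 CPM (log2 fold change 1.15, SE 0.09, edgeR adjusted p = 2.53e-08), while Csrp1 stood at 69.2 ± 6.69 and 65.6 ± 10.7 CPM (-0.08, SE 0.10, adjusted p = 0.552). Thus the family member with the larger log2 fold change was not the Z-disc protein Csrp3. Flna, the filamin of most cell types, rose by a log2 fold change of 0.33 (SE 0.10, edgeR adjusted p = 0.0105). Fhl3 rose at a low level, from 3.22 ± 0.791 to 5.24 ± 1.20 CPM (0.70, SE 0.18, edgeR adjusted p = 0.00351), and Fhl4 was at 0.33 (SE 0.38, adjusted p = 0.497). The other Sprr genes had almost no counts: of the 11 with a row, 10 had 0 counts in all 12 libraries, and Sprr2f averaged 0.0114 CPM in KO.

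Ratios of a pair of genes within a library do not depend on scaling, and 10 pairs were compared by two-sided exact permutation tests on log2 ratios (n = 6 each, smallest possible p 0.00216, adjusted over the 10). How often the ratios of other gene pairs part the groups fully was not computed. Among single rows tested, 14.9% lay wholly higher and 15.2% wholly lower in KO. The Xirp1 to Xirp2 count ratio lay between 0.897 and 1.00 in every WT library and between 0.157 and 0.343 in the KO libraries. This was a shift of -2.06 on the log2 scale (SE 0.18, exact permutation adjusted p = 0.00361), so the Xin genes, near equal in count in WT, diverged. The Csrp3 to Ankrd1 ratio went from a geometric mean of 1.36 to 0.199 (-2.77, SE 0.12, exact permutation adjusted p = 0.00361) with no overlap. In WT Csrp3 had more counts than Ankrd1, and in KO Ankrd1 had more than Csrp3.

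Filamin C rose more than its paralog: the Flnc to Flna ratio went from 1.06 to 2.12 (shift 1.00, SE 0.20, exact permutation adjusted p = 0.00361). Against its binding partners Flnc lay between them, since Xirp1 to Flnc fell from 1.15 to 0.611 (-0.92, SE 0.10) and Xirp2 to Flnc rose from 1.22 to 2.71 (1.15, SE 0.13), both at an exact permutation adjusted p of 0.00361. The Fhl1 to Fhl2 ratio rose from 0.156 to 0.339 (1.12, SE 0.21, exact permutation adjusted p = 0.00541), with 1 KO library, replicate 3, inside the WT range. Csrp3 rose against Tcap, the telethonin of the Z-disc that caps titin, by 0.40 (SE 0.14, exact permutation adjusted p = 0.00962).

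Within the ankyrin repeat genes Ankrd1 gained on both others. Its ratio to the Ankrd23 locus Novel00075 went from 4.15 to 10.5 (1.33, SE 0.14, exact permutation adjusted p = 0.00361) without overlap, and its ratio to Ankrd2 shifted by 2.84 (SE 0.69, exact permutation adjusted p = 0.00541), where the low Ankrd2 counts set the spread. Ankrd2 fell against the Ankrd23 locus by 1.51 on the log2 scale (SE 0.59, exact permutation adjusted p = 0.0303). That call was lost without WT replicate 1, 2, 3 or 4 or KO replicate 2 or 3, where shifts ran from -1.48 to -1.25 and exact permutation adjusted p from 0.0563 to 0.0649.

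**Figure D3:**
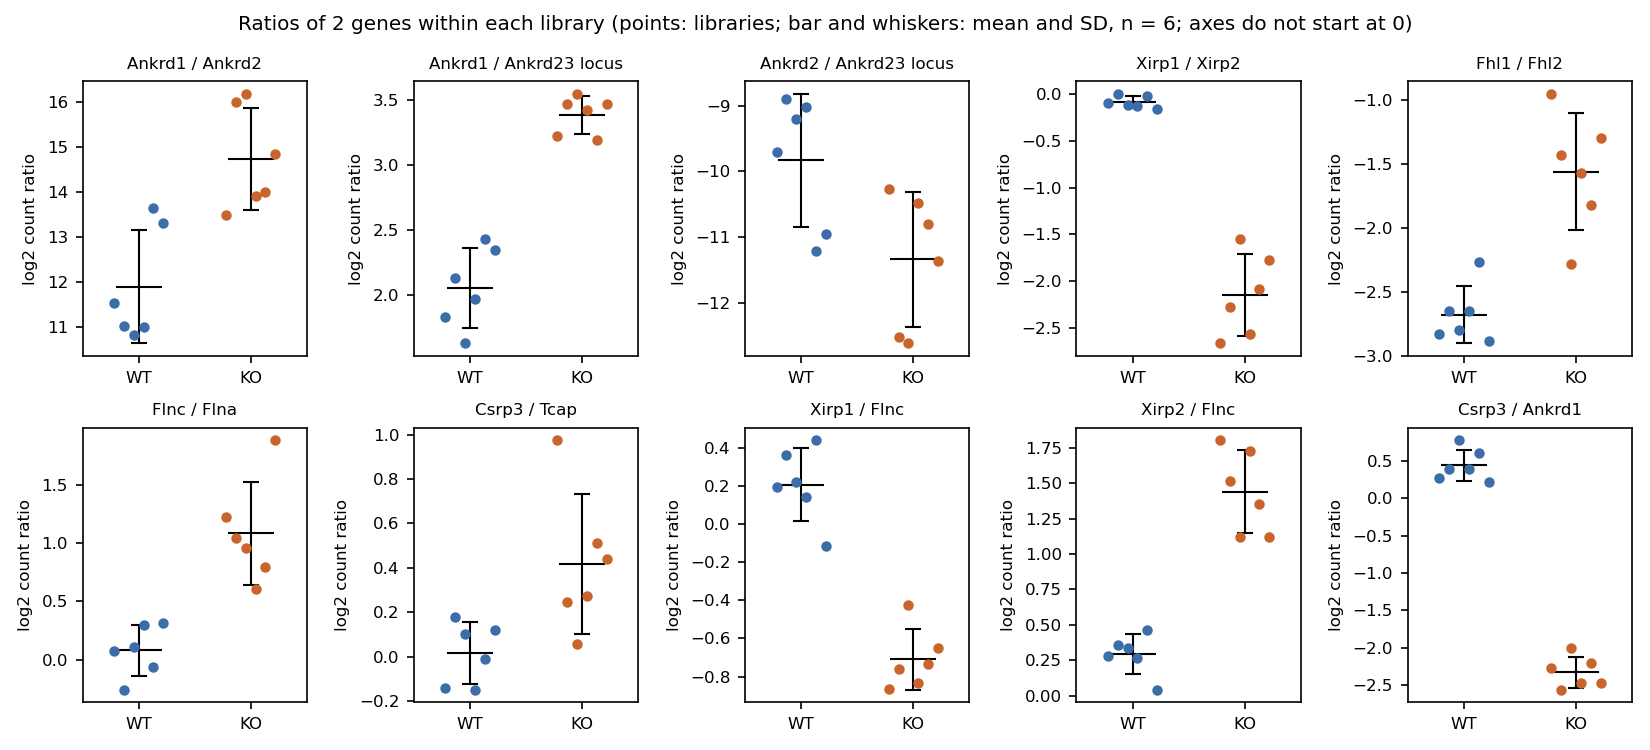
Log2 ratio of the counts of 2 genes within each library for the 10 pairs compared, WT in blue and KO in orange; points are libraries, bars and whiskers mean and SD (n = 6). The WT and KO libraries are wholly apart in 6 pairs and overlap in Ankrd1 / Ankrd2, Ankrd2 / Ankrd23 locus, Fhl1 / Fhl2 and Csrp3 / Tcap. The share of other gene pairs wholly apart was not computed.

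Most members are transcripts of cardiomyocytes, so each was also set against the geometric mean of 10 cardiomyocyte markers in the same library. Of these markers 3 rose and 5 fell (all rows tested: 25.6% and 25.5%), among them Actn2 (0.42) and Tnni3 (-0.89, log2 fold changes). Their geometric mean, per library total, was lower in KO by 0.12 on the log2 scale, and the median of all rows tested shifted by 0.12 against it, so shifts below are to be read relative to that. Against the markers, every member with a row except Ankrd2 was higher in KO without overlap. This held for 13.8% of all rows tested, and 9.79% were lower without overlap. Each of these members had an exact permutation adjusted p of 0.00244 (two-sided, n = 6 each, adjusted over 9 members). Sprr1a, which passed the filter on low counts through its KO libraries alone, had to differ and adds no support here. The shifts in log2 ratio were 8.14 for Sprr1a, 3.18 for Ankrd1, 2.59 for Xirp2, 1.81 for Fhl1, 1.44 for Flnc, 0.70 for Fhl2, 0.53 for Xirp1 and 0.41 for Csrp3. Xirp1 and Csrp3, which overlapped in CPM, thus did not overlap on this scale. Ankrd2 shifted by 0.34 (SE 0.72, exact permutation adjusted p = 0.626) and by -0.038 without WT replicate 5. The choice of reference mattered for the small rises: against Actn2 alone the shifts were -0.013 for Xirp1 and -0.13 for Csrp3, and 0.16 for Fhl2 (exact permutation adjusted p = 0.262).

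Markers of other cells of the heart were read beside all rows tested, of which 25.6% rose and 25.5% fell. The summed levels of the endothelial, smooth muscle and macrophage markers overlapped between the groups. Of 9 fibroblast markers 8 rose and 1 fell, and their summed level went from 1530.3 to 1861 CPM in WT to 2583 to 5120 CPM in KO. Of 8 endothelial markers 5 rose and 1 fell (1564 to 1771 against 1719 to 2209 CPM), of 8 smooth muscle and pericyte markers 2 rose and 3 fell (1716 to 1958 against 1523 to 2122 CPM), and of 7 macrophage markers 1 rose and 2 fell (215 to 293 against 213 to 307 CPM). The atrial markers given above summed to 175 to 442 CPM in WT and 7170 to 15803 CPM in KO. The part of these cells in the levels of the members, Flna and Csrp2 was not tested.

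To compare the genes with each other, the deposited FPKM values, which are scaled by length, were ordered within each group. In WT the highest was Csrp3 at 1302 ± 56.4 FPKM (n = 6), followed by Fhl2 at 508 ± 84.4 and Ankrd1 at 498.5 ± 82.0, whose libraries overlapped. Fhl1 at 72.2 ± 5.09 FPKM, Xirp1 at 39.2 ± 2.23, Flnc at 31.3 ± 3.93 and Xirp2 at 20.3 ± 0.982 came next, with Xirp1 and Flnc not separated. Ankrd2 at 0.249 ± 0.155 and Sprr1a at 0.0494 ± 0.0538 FPKM closed the order and were not separated either. In KO Ankrd1 came first at 4199 ± 854 FPKM, wholly above Csrp3 at 1604 ± 200.4 and Fhl2 at 752 ± 57.6. Fhl1 (240 ± 56.2), Xirp2 (116 ± 31.3), Flnc (79.0 ± 14.1) and Xirp1 (52.6 ± 9.20) followed, each overlapping its neighbour in that sequence. Sprr1a, last in WT, stood at 18.2 ± 10.9 FPKM in KO, wholly above Ankrd2 at 0.288 ± 0.187. By group mean, Xirp2 passed both Flnc and Xirp1 between the groups, and Ankrd1 passed Fhl2 and Csrp3.

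The summed FPKM of the 9 members with a row went from 2251 to 2714 in WT to 6112 to 8826 in KO. Ankrd1 made up 16.2 to 22.1% of that sum in WT and 54.4 to 62.9% in KO, and Csrp3 48.2 to 56.3% and 20.6 to 26.4%. Csrp3 thus held the largest share of the sum in every WT library and Ankrd1 in every KO library. For Fhl1 and Flnc the authors' FPKM rests on a shorter length (1481 and 6374 bases) than the length column gives (2770 and 9035). By the longer lengths the WT mean of Xirp1 stood above that of Fhl1, but their libraries overlapped. By these lengths the WT libraries of Flnc and Xirp2 overlapped as well.

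**Figure D4:**
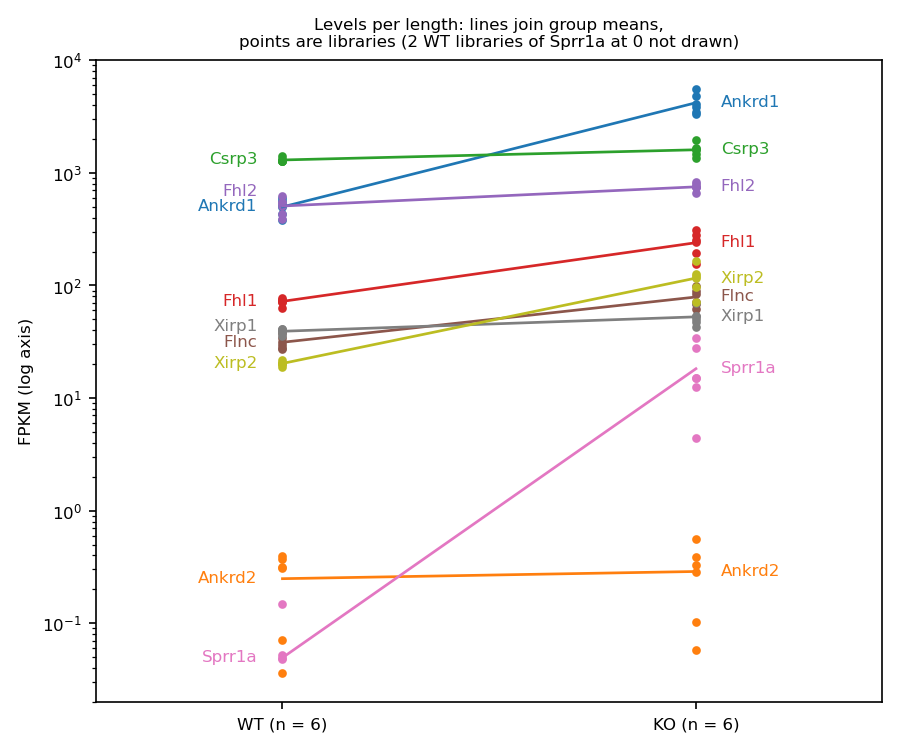
FPKM (log axis) of the 9 members with a row; points are the 6 libraries of each group and lines join the group means. Ankrd1 goes from 498.5 to 4199 FPKM and passes Csrp3, Sprr1a rises from the bottom of the order, and Ankrd2 stays below 1 FPKM.

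The KO hearts differed among themselves more than the WT hearts did in 6 of the 8 members tested. The SD of log2 CPM in Xirp2 was 0.07 in WT and 0.38 in KO, in Fhl1 0.11 and 0.35, and in Xirp1 0.09 and 0.26. Fhl2 went the other way, at 0.24 in WT and 0.13 in KO, as did the low WT counts of Sprr1a. Over all rows tested the median SD was 0.17 in WT and 0.20 in KO, and 58.6% of rows were wider in KO, so wider KO spread was common.

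Each KO library was placed between the WT mean (0) and the mean of the other 5 KO libraries (1) on the log2 CPM scale. KO replicate 3 was the lowest KO library for 5 of 8 members, Ankrd1, Xirp2, Fhl1, Flnc and Sprr1a, yet the highest for Fhl2. KO replicate 6 was highest for Ankrd1, Flnc, Xirp1 and Csrp3, and KO replicate 1 was highest for Xirp2, Fhl1 and Sprr1a and lowest for Fhl2. KO replicate 4 was lowest for Xirp1 and Csrp3, at 0.148 and 0.0166 of the way. The median position over the 8 members ran from 0.828 in replicate 3 to 1.198 in replicate 6. No KO library was thus the highest or the lowest for every member. KO replicate 6 lay above 1 for all 8 members (1.04 to 2.70), and KO replicate 5 lay below 1 for all 8 (0.492 to 0.998). The same library led Xirp2, Fhl1 and Sprr1a while another led Ankrd1, Flnc, Xirp1 and Csrp3.

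**Figure D5:**
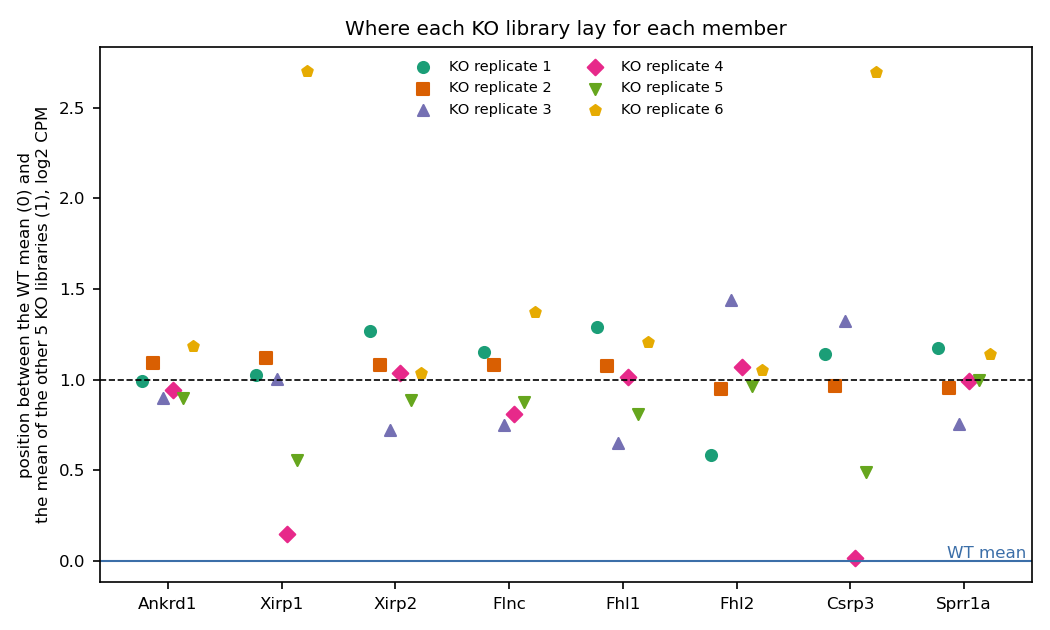
Position of each KO library (marker shape and colour) for the 8 members tested, where 0 is the WT mean and 1 the mean of the other 5 KO libraries on the log2 CPM scale. Replicate 3 lies lowest for 5 members and highest for Fhl2; the wide spread of Xirp1 and Csrp3 reflects their small distance between WT and KO.

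The genes whose levels followed Ankrd1 most closely from library to library were read from deviations of log2 CPM from each group's mean, over 12 libraries and 10044 annotated rows with a mean of at least 5 CPM. The 5 closest were Mppe1 (Pearson r 0.910), Ank1 (0.905), Nppb (0.902), Rab22a, a small GTPase of endosomes (0.8995), and Tssc4 (0.864). Nppb, the gene of brain natriuretic peptide, rose by a log2 fold change of 2.56 (edgeR adjusted p = 1.03e-07), and Ank1, which encodes ankyrin 1, by 0.23 (edgeR adjusted p = 0.00138). Tssc4 lost its call (0.21, adjusted p = 0.0287) without WT replicate 2, 3 or 5 or KO replicate 1 or 6, at adjusted p from 0.0515 to 0.0745. Of the members, Flnc came 10th of the 10044 rows (r 0.836), ahead of Xirp1 (0.666), Csrp3 (0.595), Fhl1 (0.513), Xirp2 (0.429), Sprr1a (0.154) and Fhl2 (0.104). The Ankrd23 loci Novel00075 and Novel00009 had r of 0.674 and 0.708. These correlations share libraries, depth and scaling and are given as a description.

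Genes of the structures and pathways around the members were read from lists written for this purpose. Of 33 Z-disc and titin-associated genes tested 15 rose and 10 fell, with a median log2 fold change of 0.09, where 25.6% of all rows rose and 25.5% fell. Those with the smallest p all rose: Pdlim5, a PDZ and LIM scaffold of the Z-disc (0.74, SE 0.06, edgeR adjusted p = 3.46e-08), Synpo2l, an actin-binding Z-disc protein (2.85, SE 0.17, 3.58e-08), and Smpx, a small muscle protein (0.77, SE 0.07, 7.48e-08). Synpo2l went from 58.1 ± 7.36 to 418 ± 117 CPM.

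Of 16 genes linked to SRF and its MRTF cofactors, which respond to actin dynamics, 8 rose and 2 fell (median 0.25). Vinculin of the costamere (Vcl) rose by a log2 fold change of 0.85 (SE 0.07, edgeR adjusted p = 4.7e-08), zyxin (Zyx) by 0.42 (SE 0.06, 1.54e-05) and skeletal alpha-actin (Acta1) by 2.78 (SE 0.37, 7.88e-05). The 2 lower calls became 1 without WT replicate 2 or 4 or KO replicate 3 or 6, and also with no filter on low counts. Across left-out libraries they ran from 1 to 3. Of 14 genes of YAP and TEAD, the mechanosensitive pathway whose M-CAT motif was searched above, 9 rose and 2 fell (median 0.28). Ctgf, a secreted matricellular protein, rose by 1.77 (SE 0.15, edgeR adjusted p = 3.76e-07), the receptor kinase Axl by 0.76 (SE 0.08, 3.79e-07) and the factor Tead1 by 0.56 (SE 0.07, 5.01e-06). The 2 lower calls became 0 with no filter on low counts and without WT replicate 1 or KO replicate 3, 4 or 5, and 1 without WT replicate 2 or 5 or KO replicate 1 or 2. Across left-out libraries these calls ran from 0 to 3.

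The gp130 cytokine pathway, through which Sprr1a is known to be induced, had 13 genes tested, 5 higher and 5 lower (median 0.14). Ctf1, the gene of the cytokine cardiotrophin 1, fell from 4.95 ± 0.750 to 0.613 ± 0.181 CPM (log2 fold change -3.01, SE 0.20, edgeR adjusted p = 3.58e-09). The oncostatin M receptor gene Osmr rose by 0.91 (SE 0.07, edgeR adjusted p = 3.04e-08). Genes of this pathway therefore did not move in 1 direction.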

How the data were processed

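Poly-A RNA of 12 ventricular wall samples was sequenced. The authors counted reads per gene with HTSeq and deposited raw counts per library, with FPKM values that the authors computed from counts, gene length and library size; in 13309 rows this FPKM departs by over 1% from the length column. Their own fold changes and p-values were not used. The submitters' processing notes name HISAT2 2.0.5 and mm10, whereas identifiers and coordinates belong to C57BL/6NJ. Groups came from the labels. The count model was edgeR 4.0.16 (R 4.3.3), with TMM scaling and the robust quasi-likelihood test, on the 17155 rows that filterByExpr left, and p was adjusted over these rows by the Benjamini-Hochberg method. The size of each log2 fold change divided by the root of its F statistic gave its standard error. A row was called at an adjusted p under 0.05, or strictly at 0.005 together with a log2 fold change beyond 1 in either direction. Ratios (0.5 added to counts) used exact permutation tests in scipy 1.17.1 over 6 and 6 libraries. No 2 libraries of a group agreed within counting error (chi-square divided by its degrees of freedom, 6.99 to 48.6). On simulated counts of 16948 genes, edgeR recovered 81 of 100 genes changed by a log2 fold of 1 and 90 of 100 changed by 2, with 11 false calls.

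The members and lists were chosen with earlier results of these data known. The genes named are the members, the paralogs tested, the 3 genes with the smallest p in each pathway list, Sdhaf4, and the 5 genes most like Ankrd1, of which 2 list genes are counted in their lists but not reported here by name; Nppa, Dkk3, Nr2f2, Myl4, Lor, Tnni3, Actn2, Sprr2f and the markers listed as near or at 0 were named after their values were seen. Alternatives were other scalings (DESeq2 size factors, library size, upper quartile), tests (DESeq2 1.42.0, limma-voom in limma 3.58.1, edgeR without robust dispersions) and filters, a replicate block, each library left out, 5 added to counts, Actn2 as reference, and TPM. The Ankrd23 locus Novel00009 in place of Novel00075 was added after the data had been seen. Depth of 23747014 to 31393393 counts puts the 3-count floor at 0.0956 to 0.126 CPM.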

Additional observations from a re-analysis of the deposited data

Results flagged for a closer look

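In 70 groups of 6 libraries examined, 6 held a library far from the others by Dixon's criterion, where chance gives about 1 group in 20 (3.5 here). Among the members, Fhl1 in WT replicate 2 was at 91.8 CPM while the other WT libraries were at 106 to 113 CPM. Sprr1a in WT replicate 5 was at 0.121 CPM, which is 3 counts, against 0 to 0.0423 CPM in the others. The targeted gene Sdhaf4 was at 2.73 CPM in KO replicate 1 and at 2.25 to 2.41 CPM in the other KO libraries. WT replicate 4 stood apart for Pdlim5, at 685 CPM against 569 to 606 CPM, and for Fhl3, at 4.73 CPM against 2.53 to 3.25 CPM. Csrp2 was at 30.7 CPM in KO replicate 6 and at 39.2 to 44.1 CPM in the other KO libraries.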

How the results depend on the processing

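The count of members called higher stayed at 8, and at 5 by the stricter threshold, under every scaling, test, filter and left-out library tried. By library size alone 7 members did not overlap, against 6. With the locus Novel00009, chosen after seeing the data, the Ankrd1 and Ankrd2 shifts against Ankrd23 were 1.32 and -1.52. Across left-out libraries the log2 fold change of Ankrd1 ran from 2.97 to 3.13, of Xirp1 from 0.32 to 0.49 and of Csrp3 from 0.23 to 0.36, with adjusted p up to 0.0133 for Csrp3. The shift of Ankrd2 against the Ankrd23 locus ran from -1.79 to -1.25 and kept its call in 6 of 12; low counts limit it. Relative to Actn2 alone, the shifts of Ankrd2 (-0.20), Xirp1 (-0.013) and Csrp3 (-0.13) reversed and that of Fhl2 (0.16) missed the threshold; Actn2 itself rose. Without WT replicate 5 the Ankrd2 shift against 10 markers was -0.038, in a range of -0.038 to 0.73 over the left-out libraries. By TPM from the length column, 7 of 9 WT places held, with the mean of Xirp1 above that of Fhl1 and their libraries overlapping. Same-numbered WT and KO libraries did not deviate together (correlations -0.151 to 0.0235, and 0 of 6 libraries correlated best with their own number). The replicate block therefore pairs nothing but a number: it gave 4123 higher and 4110 lower rows against 4391 and 4376, kept 8 members higher, made the 2 lower calls of the YAP list 0, and left Csrp3 to Tcap (0.40) and Ankrd2 to Ankrd23 (-1.51) at an exact sign-flip adjusted p of 0.0625. In all, 389 values of the comparisons kept direction and call, or a similar count, under an alternative, 9 lost the call, 4 reversed and 1 moved. Of the values for single genes and lists 944 kept theirs, 6 lost the call (Tssc4) and 15 moved (lower calls of the SRF and YAP lists). Counts that changed a little are among those kept. Across left-out libraries the genes of the pathway lists called higher ran from 34 to 37 and those called lower from 16 to 20. The cause of the changes was otherwise not tested.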
